A study of Mus musculus with 30 samples.

Results

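The genes described here are 57 named genes spread along mouse chromosome 15, read as a group for their level in cultured neural progenitors. They were picked after a shared shift had been seen on some neurosphere arrays of this study, so their neurosphere values are given as a description, with no p-value or call. Of the 57 genes, 52 had a probe set with 1 gene symbol, out of 18194 genes so measured, and all 52 passed the filter on low signal in neurospheres. Ptk2, Enpp2, Hsf1, Atf1 and Tuba1b had none and have no value here. For Trib1, the filter was not passed in the embryonic tissues.

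RNA was measured on 30 Affymetrix Mouse Genome 430 2.0 arrays, of which 22 came from neurospheres of 12 embryo-derived lines and 8 from embryonic tissue. Neurospheres are floating colonies of neural stem and progenitor cells. All of them lacked Ink4a/Arf, a locus that encodes inhibitors of the cell cycle, came from the ganglionic eminences at E14.5, had a mixed Swiss and C57BL/6J background, and carried hEGFRvIII, a truncated and constantly active EGF receptor, from a retrovirus given at passage 1 with puromycin selection. Without a further virus (called untransduced below) there were 3 Olig1/2+/+ cultures (wild-type, lines 2, 3 and 20), 3 Olig1/2+/- cultures (heterozygous, lines 11, 15 and 26) and 6 Olig1/2-/- cultures (null, lines 12, 13, 14, 16, 21 and 24). A second retrovirus, given at passage 3 with blasticidin selection, carried GFP or Olig2 into heterozygous lines 11 and 15 and null lines 12, 13 and 14, with 1 array for each line and virus. The labels give harvest at passages from 4 to 15 but not the passage of any array. The tissue arrays were forebrain and spinal cord at E18.5 from embryos 1 and 2 (null) and 3 and 4 (heterozygous), whose labels name Olig2 where the series design names Olig1/2, and they carry no virus or Ink4a/Arf deletion in their labels. Olig1 and Olig2 are neighbouring genes for transcription factors of the oligodendrocyte lineage, and the study asked what their loss and the return of Olig2 do to such cells.

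A gene's transcript level usually follows the number of its copies in the cell, so a whole chromosome that is gained or lost moves many unrelated genes a little and in the same direction. Mouse chromosome 15 holds Myc, a transcription factor gene that drives growth and division and is a frequent subject of copy gains in tumours and in cultured cells. If signal were proportional to copies, 3 copies in place of 2 in every cell would give a ratio of 1.5, or 0.585 on the log2 scale. DNA was not measured in the files used here, and whether the shifts below follow copy number was not tested. A mixed culture, in which only some cells changed, cannot be told apart from a small change in every cell.

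To see whether the members share a control sequence, promoter windows of 300 bases from RefSeq (GRCm38.p6) were searched on both strands for CACGTG, the E-box bound by Myc with its partner Max, and for TGATGNAA, the composite element bound by Atf4 with C/EBP factors. These 2 motifs do not overlap. Windows were found for 24 of the members, 32 windows in all. CACGTG was in 3 of these windows (9.38%) against 7.15% of all 32851 windows, and TGATGNAA was in 0 of them against 3.97% of all. Of 22 windows of a list of known Atf4 target genes, none of which lies on chromosome 15, TGATGNAA was in 6 (27.3%), and of 29 windows of a list of known Myc target genes CACGTG was in 11 (37.9%). The shares are descriptions of letters in a window. Printed below, 5′ to 3′ with any motif in capitals, are the first and the last measured member along the chromosome (Dab2, chr15:6299539-6299838, plus strand, and Lima1, chr15:99820100-99820399, minus strand), a member with an E-box (Cbx6, chr15:79834284-79834583, minus strand) and, for contrast, the Atf4 target Vldlr (chr19:27216770-27217069, plus strand), whose match is on the other strand. Cbx6 and Vldlr were chosen after their values were seen.
Dab2: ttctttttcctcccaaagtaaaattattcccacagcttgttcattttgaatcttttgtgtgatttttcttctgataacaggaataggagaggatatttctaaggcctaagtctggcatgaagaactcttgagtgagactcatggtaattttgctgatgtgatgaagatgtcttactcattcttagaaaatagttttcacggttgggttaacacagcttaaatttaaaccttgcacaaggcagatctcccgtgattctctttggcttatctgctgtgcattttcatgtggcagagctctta
Lima1: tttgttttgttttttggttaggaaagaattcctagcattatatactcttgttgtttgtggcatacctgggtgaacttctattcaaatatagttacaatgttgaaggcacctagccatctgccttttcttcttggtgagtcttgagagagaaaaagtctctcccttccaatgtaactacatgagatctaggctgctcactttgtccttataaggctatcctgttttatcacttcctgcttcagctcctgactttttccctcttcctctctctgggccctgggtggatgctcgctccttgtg
Cbx6: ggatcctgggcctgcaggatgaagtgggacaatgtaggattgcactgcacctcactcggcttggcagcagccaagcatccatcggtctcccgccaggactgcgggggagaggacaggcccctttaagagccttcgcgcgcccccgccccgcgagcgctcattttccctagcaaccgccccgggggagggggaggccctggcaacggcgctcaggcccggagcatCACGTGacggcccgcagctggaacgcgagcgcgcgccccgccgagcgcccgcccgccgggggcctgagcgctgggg
Vldlr: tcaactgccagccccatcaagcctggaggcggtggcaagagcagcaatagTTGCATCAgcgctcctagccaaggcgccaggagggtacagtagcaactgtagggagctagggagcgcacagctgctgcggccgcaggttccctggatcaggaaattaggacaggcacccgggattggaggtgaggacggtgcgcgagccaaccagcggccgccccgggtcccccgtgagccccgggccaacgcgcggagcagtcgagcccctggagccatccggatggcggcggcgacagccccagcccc

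The shift of an array was taken as the median, over the 52 members, of the log2 difference from each gene's own median over the 22 neurosphere arrays, after the median of all other genes on that array was set to 0. It ran from -0.20 to 0.28, a span of 0.48. In wild-type cultures it was -0.14 in line 2, -0.20 in line 3 and -0.05 in line 20. Heterozygous cultures had 0.04 in line 11, -0.13 in line 15 and -0.10 in line 26. Null cultures had -0.14 in line 12, -0.09 in line 13, 0.28 in line 14, 0.18 in line 16, -0.16 in line 21 and -0.05 in line 24. Of the 12 untransduced cultures, only null lines 14 and 16 lay at 0.1 or above, and the null group overlapped both other genotypes.

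With GFP virus the shift was -0.04 in heterozygous line 11, 0.11 in heterozygous line 15, 0.28 in null line 12, -0.11 in null line 13 and -0.04 in null line 14. With Olig2 virus it was -0.01, 0.19, 0.27, 0.23 and 0.16 in the same order. In all, 8 of the 22 arrays lay at 0.1 or above, 6 at -0.1 or below and 8 between. On either side of that limit the nearest values were 0.11 (heterozygous line 15 with GFP) and 0.04 (untransduced heterozygous line 11).

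**Figure D1:**
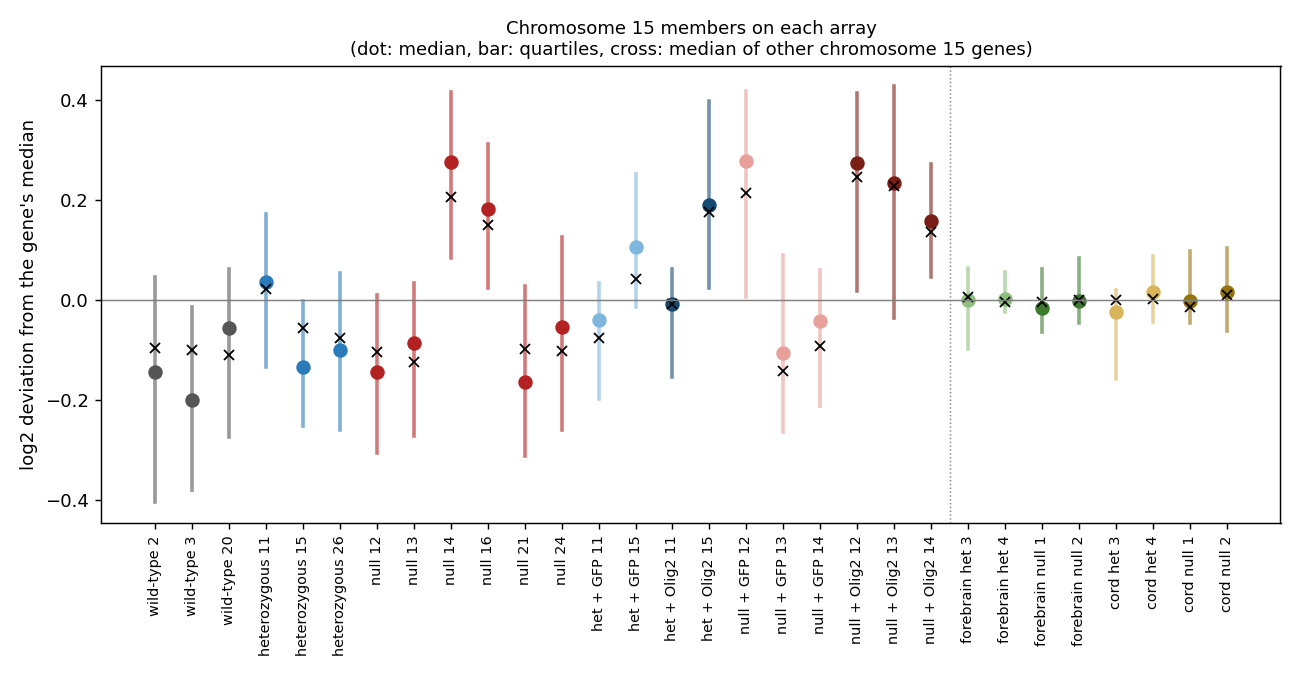
Log2 deviation of the chromosome 15 members from each gene's median, for each of 22 neurosphere arrays (left of the dotted line, medians over neurospheres) and 8 tissue arrays (right, medians within each tissue). Dots are medians over members, bars run from the lower to the upper quartile, and crosses are the medians of the other chromosome 15 genes. Neurosphere dots run from -0.20 to 0.28 and tissue dots from -0.024 to 0.016.

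The shift was carried by most members and not by a few. A deviation above 0 was found for 46 of 52 members on the array of null line 14, 41 in null line 16, 39 in null line 12 with GFP, 40 in null line 12 with Olig2, 37 in null line 13 with Olig2 and 45 in null line 14 with Olig2, where 50% of all deviations over genes and arrays were above 0. The count was 11 in wild-type line 3, the lowest of all arrays. Since the members were chosen on these arrays, nothing is read from the distance to 50%. The 371 other genes of chromosome 15 past the filter were not chosen by name, although the choice followed a shift of this chromosome. Their median was 0.21 in null line 14, 0.15 in null line 16, 0.21 and 0.25 in null line 12 with GFP and with Olig2, 0.23 in null line 13 with Olig2, 0.14 in null line 14 with Olig2 and 0.18 in heterozygous line 15 with Olig2. On the remaining 15 neurosphere arrays it ran from -0.14 to 0.04.

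The shift of the other chromosome 15 genes was read in 3 stretches along the chromosome. In null line 14 their medians from the first to the last stretch were 0.22, 0.22 and 0.19, and in null line 12 with Olig2 they were 0.27, 0.23 and 0.23. They were less even in null line 12 with GFP, at 0.30, 0.20 and 0.16, and in null line 13 with GFP, at -8.14e-05, -0.18 and -0.22. Members of higher and lower signal had like medians in null line 14 (0.27 and 0.28) and in null line 16 (0.16 and 0.19), whereas in heterozygous line 15 with Olig2 the more highly expressed members stood at 0.29 and the others at 0.10.

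Chromosome 15 was set beside the rest of the genome in these cultures. Its median over all genes past the filter was at least 0.1 in size on 15 of 22 neurosphere arrays. Among the other 19 chromosomes, 1 of 418 medians was that large, chromosome 19 in wild-type line 3 at 0.26. The next was 0.0592 in size. The chromosome 15 median includes the members, and this chromosome was picked after its shift was seen on these arrays. Nothing is therefore read from the contrast.

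**Figure D2:**
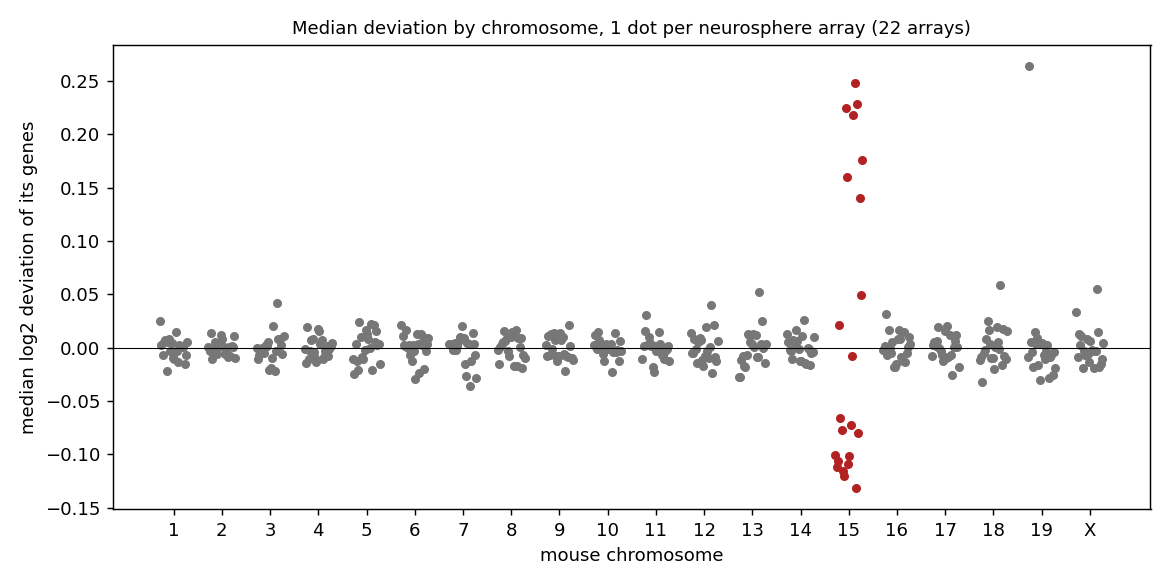
Median log2 deviation of the genes of each mouse chromosome (horizontal axis), with 1 dot for each of 22 neurosphere arrays and chromosome 15 in red. On chromosome 15 the median was at least 0.1 in size on 15 arrays. On the other 19 chromosomes this held in 1 of 418 cases, chromosome 19 at 0.26. Chromosome 15 was picked after a shift was seen on these arrays.

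The same line could lie on either side from array to array. In null line 12 the shift was -0.14 without further virus, 0.28 with GFP and 0.27 with Olig2. In null line 14 the order was different, 0.28, -0.04 and 0.16. In null line 13 it was -0.09, -0.11 and 0.23, in heterozygous line 15 it was -0.13, 0.11 and 0.19, and in heterozygous line 11 it stayed between -0.04 and 0.04. The median member difference between GFP and untransduced culture was 0.36 in null line 12 and -0.33 in null line 14, with 43 of 52 members higher in the first and 45 lower in the second. Over all genes 50.2% of such differences were above 0. Between GFP and untransduced culture the median difference was 0.0049 in null line 13, 0.27 in heterozygous line 15 and -0.13 in heterozygous line 11. For the other chromosome 15 genes it was 0.34, 0.029 and -0.32 in null lines 12, 13 and 14. In heterozygous line 15 it was 0.11 for these other genes, smaller than for the members, and in heterozygous line 11 it was -0.12. These are single pairs of arrays with no replicate.

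As a group, null cultures with Olig2 averaged 0.22 ± 0.058 (SD, n = 3) and null cultures with GFP 0.043 ± 0.21 (SD, n = 3). Their difference of 0.18 compares with a pooled SD of 0.15, and it was 0.30 when GFP-transduced line 12 was left out and 0.11 when GFP-transduced line 13 was. Untransduced null cultures averaged 0.0017 ± 0.18 (SD, n = 6), heterozygous ones -0.065 ± 0.090 (SD, n = 3) and wild-type ones -0.13 ± 0.073 (SD, n = 3), so that null minus Olig-expressing cultures came to 0.10 with a pooled SD of 0.15. Without null line 14 this was 0.030 and without null line 16 it was 0.040. In heterozygous lines Olig2 minus GFP came to 0.058 with a pooled SD of 0.12, and with each of the 4 arrays left out in turn it ran from -0.049, without the Olig2 array of line 15, to 0.16, without the Olig2 array of line 11. None of these differences was tested, since these arrays chose the members.

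**Figure D3:**
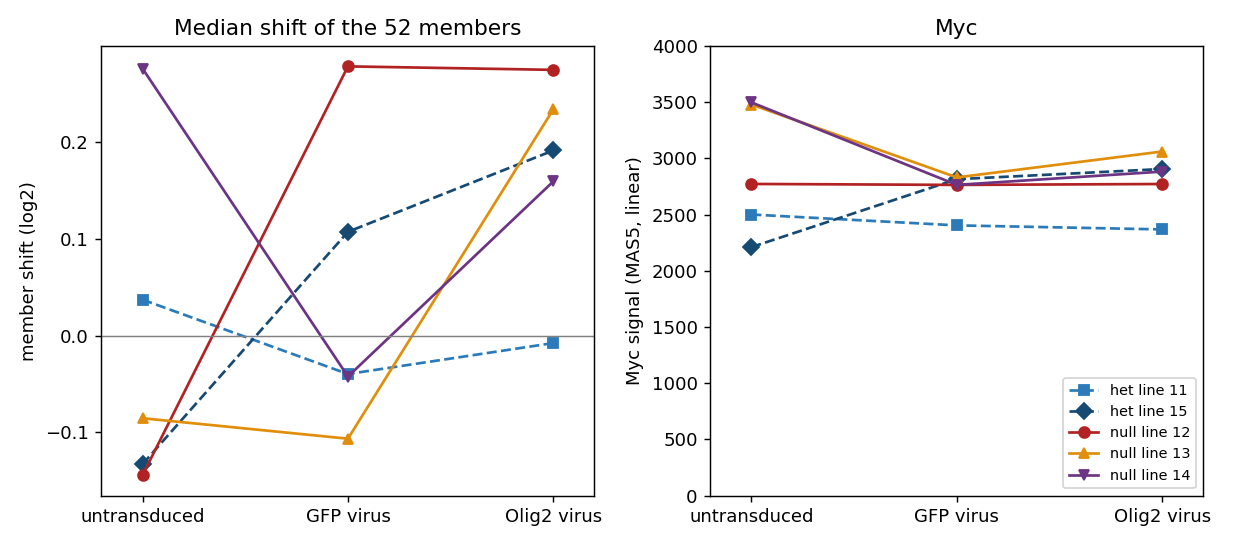
Left, median log2 shift of the 52 members, and right, linear MAS5 signal of Myc, for the 5 lines measured untransduced, with GFP virus and with Olig2 virus, 1 array per point. In null line 12 the shift went from -0.14 to 0.28 and 0.27 while the Myc signal was 2772, 2764 and 2772.

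Myc signal and the members' shift differed in order over the arrays. Myc signal was 1945, 1603 and 1833 in wild-type lines 2, 3 and 20, and 2501, 2210 and 2906 in heterozygous lines 11, 15 and 26. In null lines 12, 13, 14, 16, 21 and 24 it was 2772, 3479, 3498, 3516, 2537 and 2619. The 3 wild-type arrays lay below all other 19 neurosphere arrays, and the null and heterozygous ranges overlapped. With GFP the signal was 2404 and 2815 in heterozygous lines 11 and 15 and 2764, 2831 and 2764 in null lines 12, 13 and 14, and with Olig2 it was 2368, 2905, 2772, 3061 and 2882 in the same order.

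Null line 13 had a Myc signal close to those of lines 14 and 16 with a member shift of -0.09 against 0.28 and 0.18. Between GFP and untransduced culture of null line 12, Myc differed by -0.013 on the log2 scale and the members' median by 0.36. In null line 14 Myc differed by -0.35 and the members by -0.33, and in heterozygous line 15 by 0.33 and 0.27. Myc was 0.51 higher on the log2 scale in untransduced null than in Olig-expressing cultures, and Olig2 and GFP cultures of the null lines differed by 0.059.

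**Figure D4:**
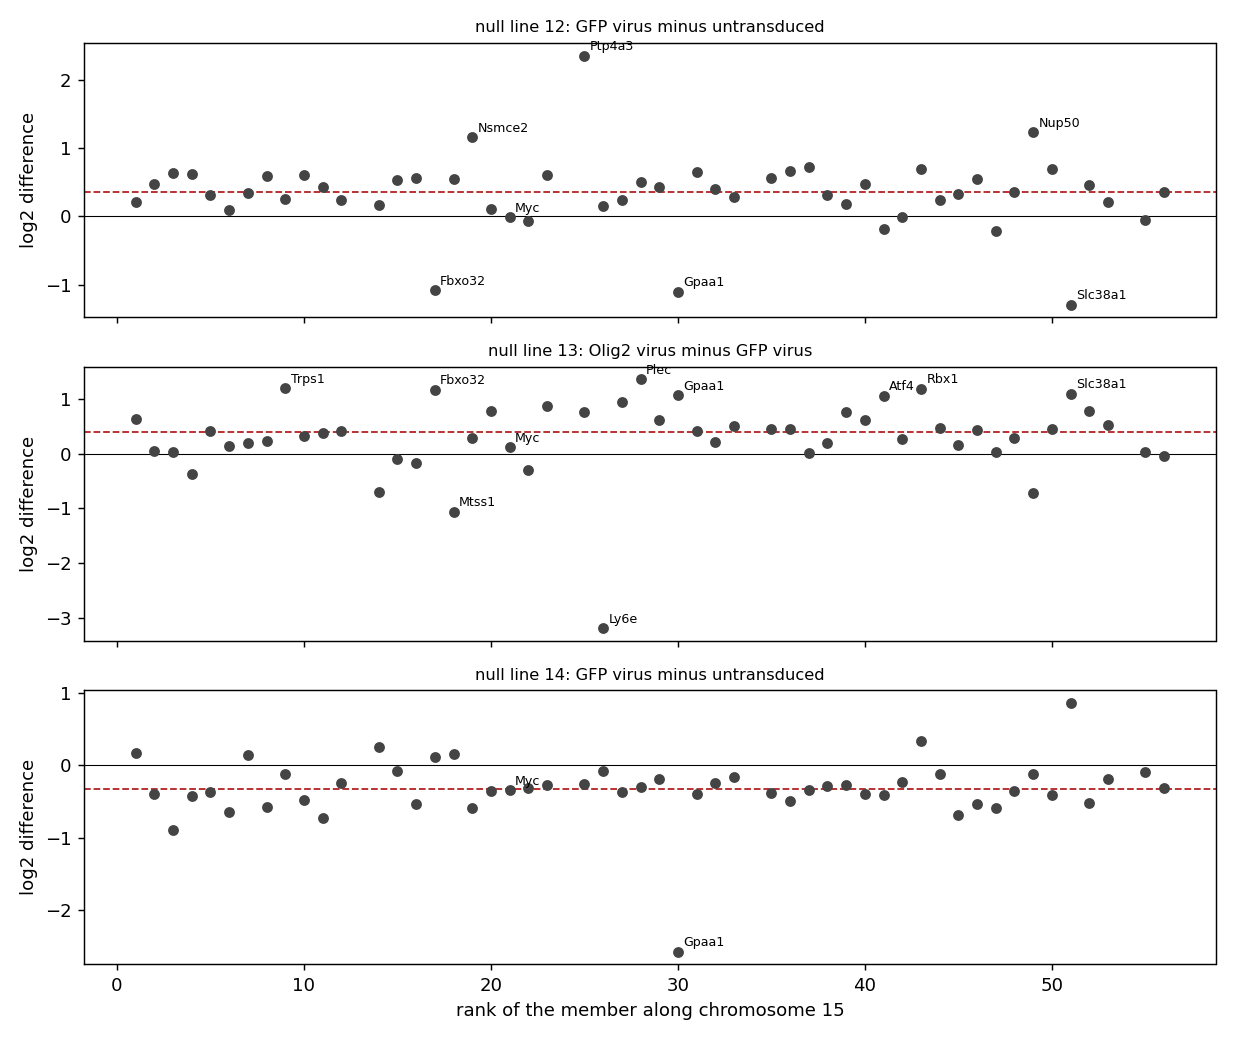
Log2 difference of each measured member between 2 arrays of a line, in order along chromosome 15 (rank, horizontal axis), for 3 of the 15 differences, with the members' median as a dashed line. Medians are 0.36, 0.39 and -0.33 from top to bottom, and named points are Myc and members more than 1 in size.

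Among genes of translation and RNA handling, 3 subunits of the initiation factor eIF3 lie apart on the chromosome, and Eif3h and Eif3l were added to Eif3e after their values were seen. Eif3e signal in null line 12 was 8580 untransduced, 13069 with GFP and 13245 with Olig2, and in null line 14 it was 12509, 8471 and 10926. For Eif3h the values were 5294, 8122 and 8739 in line 12 and 7812, 5631 and 6884 in line 14. For Eif3l they were 5472, 8753 and 8428, then 8260, 5917 and 8098. All 3 genes were thus lowest in the untransduced array of line 12 and in the GFP array of line 14. They are members that enter the shift of these arrays, so nothing is read from this order. Ddx17, an RNA helicase gene, varied least among the members of this role, with an SD of 0.12 on the log2 scale over the 22 arrays.

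Among chromatin genes, Rad21, a subunit of the cohesin ring that holds sister chromatids together, had a signal of 7681 in untransduced null line 14 and from 4872 to 5503 in the other 5 null cultures. With Olig2 the null lines 12, 13 and 14 had 7310, 7911 and 7338, and with GFP 6736, 6133 and 4659, so that the Olig2 and GFP arrays did not overlap. Cbx6, a Polycomb protein gene, averaged 3252 ± 199 with Olig2 and 2500 ± 584 with GFP in the null lines (SD, n = 3 each).

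Among members for metabolism and membranes, Slc38a2, a neutral amino acid transporter gene, had 15638, 16833 and 15825 with Olig2 in null lines 12, 13 and 14 against 12676, 9838 and 10969 with GFP. Cyc1, a subunit gene of respiratory complex III, had 7648 to 7845 in untransduced null lines 12, 13, 21 and 24. In untransduced null lines 14 and 16 it had 10344 and 9147, the highest of the untransduced null cultures. Cyc1 is itself a member that enters the shift of these arrays, so nothing is read from this order. Gpaa1, needed to attach GPI anchors to proteins, had 679, 724 and 472 with GFP and 1992, 1532 and 2523 with Olig2, the largest difference upwards of all members at 1.66 ± 0.21 (SE). The other probe sets of Gpaa1 differed by 0.27 and 0.038 in that comparison, so the size of the Gpaa1 difference rests on 1 probe set. Slc38a1, a further amino acid transporter gene, differed by 1.59 ± 0.67 (SE), with 573, 465 and 2089 with GFP and 5757, 1007 and 2735 with Olig2, and the groups overlapped.

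Around Myc on the chromosome lie Derl1, Atad2, Fbxo32, Mtss1, Nsmce2 and Trib1, and their differences had both signs. Mtss1, which encodes a protein that bends membranes at the actin cortex, had 4320, 4335 and 3844 with GFP in null lines 12, 13 and 14 and 2643, 2064 and 2734 with Olig2, a difference of -0.75 against the direction of the members' median. Its other 5 probe sets ranged from -0.29 to 0.65. Fbxo32, a ubiquitin ligase gene, had 225, 315 and 392 with GFP and 797, 726 and 368 with Olig2, with overlapping groups, and all 3 of its probe sets were higher with Olig2, by 0.94 to 1.68. Derl1, a gene of protein export from the endoplasmic reticulum, averaged 4098 ± 760 with GFP and 3766 ± 594 with Olig2 (SD, n = 3 each). That is a difference of -0.12, while its other probe sets differed by 0.57, 0.43 and -0.29, so its sign depends on the probe set.

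Among signalling genes, Ly6e, a GPI-anchored surface protein gene, was separated by genotype. Its signal was 96 to 211 in the 6 Olig-expressing untransduced cultures and 594 to 1362 in the 6 null ones, without overlap. In null lines 12, 13 and 14 it was 1517, 414 and 1007 with GFP and 130, 31 and 82 with Olig2, a difference of -3.32 ± 0.52 (SE), the largest downwards. A second, dimmer probe set of Ly6e differed by 0.052. Ywhaz, a 14-3-3 adaptor gene, averaged 13475 ± 545 with Olig2 and 12213 ± 2485 with GFP, and Plxnb2, a semaphorin receptor gene, 5054 ± 496 and 4312 ± 1401 (SD, n = 3 each). Deptor, an inhibitor of mTOR, was lower with Olig2, at 282 ± 77 against 437 ± 22 (SD, n = 3 each). Ptp4a3, a phosphatase gene, had 3456, 622 and 1091 with GFP, and its difference of -0.57 ± 0.45 (SE) rests on the array of line 12. Csnk1e, a casein kinase gene, differed by -0.20 ± 0.16 (SE).

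Of the transcription factors, Atf4, the main activator of the response to amino acid shortage and protein stress, had 12756, 10628 and 6381 with Olig2 and 5902, 5117 and 4867 with GFP in null lines 12, 13 and 14. The groups did not overlap, and the difference was 0.85 ± 0.22 (SE), in line 12 1.12, in line 13 1.05 and in line 14 0.39. Its next brightest probe set differed by 0.45. In line 12 the members' median differed by only 0.035 between these arrays, where Atf4 differed by 1.12. Trps1, a GATA-type repressor gene, averaged 2590 ± 782 with Olig2 and 1669 ± 184 with GFP (SD, n = 3 each).

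Members of the remaining roles ranged from flat to wide. Tuba1a, an alpha-tubulin gene, had the smallest spread of all members, from 28757 to 33580, with an SD of 0.061 on the log2 scale. It was also the brightest, and a compressed response at such signal was not tested. Lima1, an actin-binding protein gene at the far end, ran from 389 to 2417. Golph3, a Golgi protein gene, averaged 8105 ± 2602 with Olig2 and 7632 ± 1317 with GFP in the null lines, and Rangap1, a gene of nuclear transport, 2286 ± 105 and 2052 ± 570 (SD, n = 3 each). Nup50, a nuclear pore gene, was at 949, 873 and 1276 with Olig2 and 2245, 1445 and 1489 with GFP, a difference of -0.72. Its 2 dimmer probe sets differed by 0.21 and 0.40, in the other direction. Plec, a cytoskeletal linker gene, and Puf60, a splicing factor gene, were higher with Olig2 by 0.85 ± 0.26 and 0.66 ± 0.14 (SE).

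Over all members the median difference between Olig2 and GFP in null lines was 0.20, with 78.8% of the 52 above 0, and over all 12459 genes it was 0.029 with 52.7% above 0. Between untransduced null and Olig-expressing cultures the members' median difference was 0.080, with 69.2% above 0, against -0.019 and 46.4% over all 12023 genes. Nothing is read from these medians, because the same arrays chose the members.

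The tissue arrays served as the control, since they did not choose the members. Member shifts, set against each tissue's own 4 arrays, ran from -0.024 to 0.016, over 49 members past the filter in forebrain and 47 in spinal cord. A median over only 4 arrays that include the array itself narrows this range. Between null and heterozygous forebrain, limma called 0 of 51 members, where 0.0405% of all genes were called, and the median difference was 0.0036. An unadjusted p under 0.05 was reached by 1 of 51 members and 781 of all 12343 genes. In spinal cord 0 of 51 were called, where 0.13% of all genes were called, and the median was 0.017. There 5 members and 742 of all 12343 genes reached an unadjusted p under 0.05. Limma's interaction test of the genotype effect between the tissues called 0 of 51 members and 0 of all 12343 genes. In it 6 members and 706 of all genes reached an unadjusted p under 0.05, so the 0 is not particular to the members.

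Spinal cord and forebrain differed in 25 of 51 members, 9 higher and 16 lower in the cord, where 40% of all genes were called. Nup50, Fbxo32 and Atad2 passed the filter on low signal only through forebrain, where they are higher, so their calls support nothing here, and of the 48 members that passed it in both tissues 9 were higher and 13 lower. The RNA-binding protein gene Khdrbs3 was lower in the cord, at 1246 ± 180 against 3163 ± 63.9 (SD, n = 4 each), by -1.35 ± 0.096 (SE) with limma's adjusted p 1.33e-06. Csnk1e fell by 1.12 and Mtss1 fell by 0.84 (adjusted p 4.36e-07 and 2.79e-06), Nup50 fell by 1.22 and Fbxo32 fell by 1.09 (0.00917 and 0.0135), and the ATPase gene Atad2 fell by 0.70 (0.0184). Dab2, an endocytic adaptor gene, rose by 0.95, Plec by 0.73, Trps1 by 0.70, Slc38a1 by 0.58 and Ly6e by 0.52 (limma's adjusted p 0.00439, 3.38e-05, 0.000579, 0.000388 and 0.000685). For Dab2 the tissues overlapped, and its call was lost with the mean of all probe sets (0.61) or without cross-hybridising probe sets (0.48). The call of Fbxo32 was lost without forebrain embryo 1 (-1.03) or 3 (-0.96). That of Atad2 was lost without null forebrain embryo 2 (-0.65), null cord embryo 2 (-0.60) or heterozygous cord embryo 3 (-0.61). Rbx1, a ubiquitin ligase subunit gene, differed by 0.71 without a call (adjusted p 0.132). The rise of Ly6e came from 1 probe set that can cross-hybridise, and the other gave -0.14. Summed marker signal of blood vessel and connective tissue cells was 9650 to 16677 in the cord and 2350 to 2511 in forebrain, and the part of such cells in these differences was not tested. In bulk tissue fewer cells of a type and less RNA per cell cannot be told apart.

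Myc signal in tissue was lower than in any neurosphere, at 825 ± 8.77 in null and 657 ± 39.8 in heterozygous forebrain and 516 ± 104 and 482 ± 106 in the cord (SD, n = 2 each). It was lower in the cord by -0.56 ± 0.14 (SE), with limma's adjusted p 0.0076, and all 4 cord arrays lay below all 4 forebrain arrays.

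Genes that the members Myc and Atf4 are known to control lie on other chromosomes and were read as lists in the same comparisons. Of 29 Myc targets tested between Olig2 and GFP in null lines, 2 rose and 2 fell, with a median of -0.11, where 7.9% of all genes were called. The lactate dehydrogenase gene Ldha rose by 0.48 and the nucleolar gene Nop58 by 0.74, while the polyamine enzyme gene Odc1 fell by 0.57 and the nucleolar gene Fbl fell by 0.41 (limma's adjusted p 0.0222, 0.0433, 0.0337 and 0.0363). All 4 calls were lost without a trend in the fit and without the Olig2 array of line 12 or 13 or the GFP array of line 14, and 1 to 3 were called without each of the other arrays. With the line as a block Nop58 and Fbl were not called, and 3 of the 29 targets were, 1 up and 2 down. Between null and Olig-expressing cultures, where 8.33% of all genes were called, 1 of 27 rose, the cyclin gene Ccnd2 by 0.61, and 1 fell, Ldha by 0.41 (adjusted p 0.0198 and 0.00817), where Myc signal was 0.51 higher. The call of Ccnd2 was lost without heterozygous line 11 (0.53).

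Of the 12 genes of the Myc network, which pair or compete with Myc, 0 rose and 3 fell with Olig2. Among all genes 7.9% were called between Olig2 and GFP in null lines. The repressor genes Mxd4 and Mxd3 fell by 1.23 and fell by 1.08, and Max, the partner of Myc, fell by 0.92 (limma's adjusted p 0.00497, 0.0149 and 0.0253). The call of Mxd3 was lost without the Olig2 array of line 12 (-0.90) or 13 (-1.01) or the GFP array of line 13 (-0.98), and that of Max without any of the virus arrays of null lines 12 and 13 (-0.95 to -0.82). Mxd3 was higher by 0.88 in null than in Olig-expressing cultures (adjusted p 0.00077). Mycn, the Myc relative in this list, had a signal of 30497 in null and 31284 in Olig-expressing cultures, a difference of -0.038. In null lines it was at 32800 with Olig2 and 34095 with GFP. The parts of Mycn and of Myc in the levels of the Myc targets were not tested.

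Atf4 targets serve amino acid supply and the stress response. With Olig2 in null lines, 5 of 22 rose, 0 fell and 17 did not pass the test, where 7.9% of all genes were called. Of the 22 differences 86.4% were above 0, against 52.7% over all genes. Their median was 0.68 against 0.029 over all genes. Vldlr, a lipoprotein receptor gene, was at 2250 ± 633 with Olig2 and 796 ± 96.7 with GFP (SD, n = 3 each), a rise of 1.45 ± 0.18 (SE) with limma's adjusted p 0.00166. The stress gene Ddit4 rose by 1.30, Stc2 by 0.77, the C/EBP gene Cebpb by 0.71 and the serine synthesis gene Phgdh by 0.68 (adjusted p 0.0129, 0.0143, 0.0332 and 0.0371). Chac1, which degrades glutathione, differed by 2.00 ± 0.56 (SE), the largest size, without a call (adjusted p 0.0526). Stc2 was not called without the Olig2 array of line 13 (0.71), nor Ddit4 without that of line 12 (1.23) or 13 (1.18). The call of Phgdh, with the highest adjusted p of the 5, was not followed array by array. Cebpb was not called without any of 6 arrays, the Olig2 arrays of lines 12 and 13 and the GFP arrays of lines 11, 13, 14 and 15 (0.53 to 0.73). With the line as a block 8 were called. Single arrays decided the count: 17 were called without the Olig2 array of line 14, where Atf4 was lowest of the 3, 1 without that of line 13 and 2 without that of line 12, and 3 without the GFP array of null line 13, null line 14, heterozygous line 11 or heterozygous line 15.

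Between untransduced null and Olig-expressing cultures the counts of the Atf4 targets had the other sign. Of 22, 0 rose, 6 fell and 16 did not pass the test, where 8.33% of all genes were called. Their median was -0.41 against -0.019 over all genes. Vldlr signal was 1104 ± 184 in null and 2364 ± 490 in Olig-expressing cultures (SD, n = 6 each), without overlap, a difference of -1.08 ± 0.14 (SE) with limma's adjusted p 0.000266. Atf4 itself, a member and so given without a p-value, was at 5754 ± 934 and 7221 ± 1815 (SD, n = 6 each), with overlap. Trib3, a stress-response pseudokinase gene, fell by 0.97, Atf5 by 0.67 and Phgdh by 0.41, and the mitochondrial folate genes Mthfd2 and Shmt2 fell by 0.54 and by 0.55 (adjusted p 0.016, 0.00675, 0.00771, 0.0158 and 0.0227). No array is shared between these 2 comparisons, although null lines 12, 13 and 14 are in both. For the Atf4 targets the difference between Olig2 effects in null and heterozygous lines was called for 0 of 22 in limma's interaction test. An unadjusted p under 0.05 was reached by 1 of them and by 1336 of all 12459 genes. That test called only 7 of all 12459 genes, so alike effects in both genotypes cannot be read from it.

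**Figure D5:**
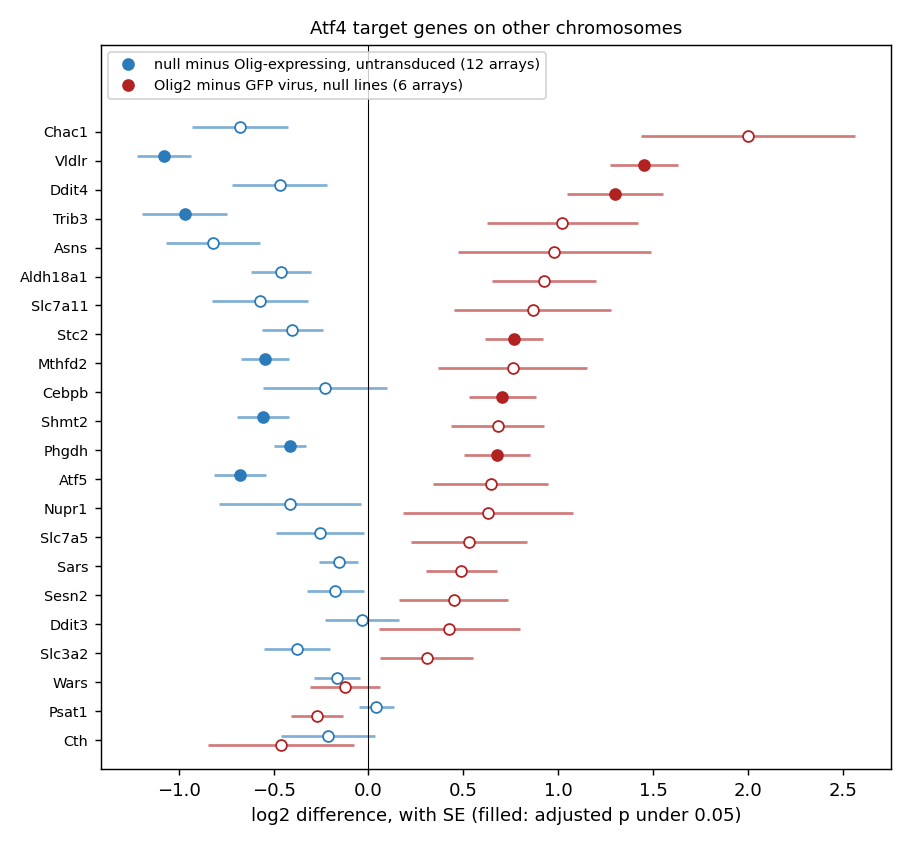
Log2 differences of 22 Atf4 target genes, none on chromosome 15, with SE bars, for Olig2 minus GFP virus in null lines (red, 3 arrays each) and for null minus Olig-expressing untransduced cultures (blue, 6 arrays each). Filled points have a limma adjusted p under 0.05: 5 rose in red and 6 fell in blue.

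Arrays of a group correlated at 0.926 to 0.945, none held identical values, and median signals ran from 128.9 to 217.4. The summed signal of neural progenitor markers was 60458 to 80830 in neurospheres and that of neuron markers 5776 to 10446, against 53692 to 56988 for neurons in forebrain. Among neurospheres the GFP array of null line 13 stood apart in RNA measures. It had a Gapdh 3′ to 5′ log2 difference of 0.43 and an A260/A280 ratio of 2.83. Its part in the results was not tested beyond leaving it out. In tissue the Gapdh difference was 0.30, 0.29, 0.37 and 0.037 in spinal cord of embryos 1, 2, 3 and 4. In forebrain of the same embryos it was -0.22, -0.12, -0.066 and -0.085. The part of RNA quality in the differences between the tissues was not tested.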

How the data were processed

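The authors deposited MAS5 signals, an intensity on a linear scale, for 45101 probe sets on each of 30 arrays, per the submitters' processing notes. The mean without the lowest and highest 2% was 500 on every array. No source used here names a MAS5 version. Of the probe sets, 34958 had 1 gene symbol in the platform annotation, 932 had several and 9211 had none. A gene was read from its probe set of highest mean log2 signal, with a pseudocount of 16. The RefSeq table (GRCm38.p6) gave chromosomes for 34754 probe sets by Entrez identifier.

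The members and lists were chosen with earlier results of these data known. A gene entered the shift when its mean reached the mean of the array medians. Tests used limma 3.58.1 in R 4.3.3 (lmFit, eBayes with a trend), two-sided, Benjamini-Hochberg adjusted over all genes tested, within sets of 12 untransduced, 10 virus and 8 tissue arrays. Genes named were Myc, the 6 largest rises and falls with Olig2, the 2 brightest members of each role, the 6 largest tissue differences each way and up to 4 per list and comparison. Eif3h, Eif3l and the list genes beyond 4 were named after their values were seen. Line and embryo numbers come from the labels and pair arrays of a line or embryo. The deviations of same-numbered arrays correlated at 0.00283 to 0.0991. Nothing says that cultures of a line were replicated, so p-values measure the spread between these arrays, whose number limits the precision.

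All arrays share 1 hybridization day, so no batch could be compared. Alternatives were pseudocounts of 1 and 64, other scaling, filters and probe set rules, a fit without a trend, the block, each array left out, and, added after the values were seen, the other chromosome 15 genes in place of the members. On simulated data with these signals, 45.9% of 2-fold and 82.3% of 4-fold changes were recovered for Olig2 against GFP. The shares were 81.5% and 96.8% for null against Olig-expressing, and 66.3% and 90.9% for spinal cord against forebrain. Only a small set of genes was changed there, with noise drawn independently, so the shares do not give the power on the real arrays.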

Additional observations from a re-analysis of the deposited data

Results flagged for a closer look

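Among the 6 untransduced null cultures, 53 values were examined for an array far from the others by a rule that marks about 1 in 20 groups by chance, and 5 were found. The values are not independent, since the members share a shift on these arrays, and nothing is read from the count. Rad21 stood at a log2 deviation of 0.486 in null line 14, with the other lines from -0.17 to 0.011, and Atad2 at 0.515 in the same line, with the others from -0.32 to -0.038. Trps1 stood at 0.423 in null line 16, with the others from -0.34 to -0.095. Lines 14 and 16 are the null cultures with a high chromosome 15 shift. Derl1 stood at -0.448 in null line 21, with the others from -0.082 to 0.057. Gpaa1 stood at -2.44 in null line 24, with the others from -0.51 to 0.53.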

How the results depend on the processing

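For the comparisons, 224 alternative values were computed, of which 197 stayed, 24 were weaker and 3 stronger. A count stayed when it equalled the main count or was within 1.5 times of it, even where single calls changed. An untested shift stayed when within 1 pooled SD. The untested heterozygous shift difference changed sign without the Olig2 array of line 15 (-0.0489). The count of neurosphere arrays with a shift of at least 0.1 was 7 to 9, also with the other chromosome 15 genes, and 7 to 8 with each array left out. With each array left out, the shift difference was 0.1051 to 0.3008 for Olig2 minus GFP in null lines, 0.02974 to 0.1262 for null minus Olig-expressing and -0.0489 to 0.1591 in heterozygous lines. Atf4 targets called with Olig2 numbered 3 without a filter, 2 without a trend, 8 with the line as a block and 1 to 17 with each array left out. For null against Olig-expressing they numbered 3 without cross-hybridising probe sets and 5 to 8 with each array left out. Myc targets called with Olig2 numbered 2 with quantile scaling, without cross-hybridising probe sets or without a filter, 0 without a trend and 0 to 3 with each array left out, and 3 with the line as a replicate block. For null against Olig-expressing they numbered 1 without cross-hybridising probe sets or a trend, and 1 to 2 with each array left out. Members called in forebrain numbered 0 to 1 with each array left out, 1 without heterozygous embryo 3, and in spinal cord 0 throughout. Between tissues they numbered 20 to 26, and 26 with the embryo as a block. The block changed no other count by over 1.5 times. Ly6e between tissues reversed to -0.1439 without cross-hybridising probe sets. The cause of these changes was not tested. For single genes and arrays, 910 of 994 values stayed, 74 were weaker, 1 stronger, 8 moved and 1 reversed. There a tested gene stayed when its call did not change, and an untested value when within 1 SD.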
